A study of Homo sapiens with 18 samples.

Results

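LNCaP and 22Rv1 are established human prostate cancer cell lines, and the arrays described here compare them before any galectin-4 was induced. The comparison took the 3 arrays of LNCaP-tetO-Gal4 cells and the 3 arrays of 22Rv1-tetO-Gal4 cells that were kept without doxycycline (Dox), 6 of the 18 arrays of the series. Cells of both groups carried the same construct, in which a Dox-driven tetO promoter controls the gene for galectin-4, and both are labelled as control cells. The rest of the series holds the same cells with Dox (LNCaP and 22Rv1, 3 arrays each) and 22Rv1-M4 cells that carried either a scramble control or a knockdown of galectin-4 (3 arrays each). The series was made to study galectin-4, so the difference between the lines is a baseline that each line brings to its Dox experiment. Whether the cells of a line are a clone or a pool, and whether replicates were separate cultures, is not given in the sources used here. P-values set a difference against the spread within groups, pooled over all 18 arrays of the series. That spread may be technical.

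Prostate luminal cells depend on androgen, which binds the androgen receptor, a transcription factor that switches on secretory genes such as the kallikreins KLK2 and KLK3 (prostate-specific antigen). Both lines keep this pathway. LNCaP was derived from a lymph node metastasis, and 22Rv1 from a human prostate tumour grown in mice that had regrown after castration. Cancer cells may also make proteins of other tissues, such as germ cell antigens or secreted proteins of gut and liver, and gains or losses of whole chromosomes shift many neighbouring genes together.

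Each array held 47303 probes, of which 19974 to 20368 were above background on the LNCaP arrays and 20454 to 21255 on the 22Rv1 arrays. Probes had to pass a detection p-value of 0.05 on 3 or more of the 18 arrays, which left 13680 named genes to test. Arrays correlated with r of 0.985 to 0.992 within LNCaP, 0.996 within 22Rv1 and 0.885 to 0.895 between the lines. On the log2 scale, genes had a median SD of 0.16 in LNCaP and 0.10 in 22Rv1. All values below are normalized log2 intensities, and differences are LNCaP minus 22Rv1 with the standard error of the limma fit, so that a difference of 1 is 2-fold. That standard error draws on the spread within every group of the 18 arrays, so it need not match the spread of the arrays printed here. Values in brackets after a gene, and those by which a gene rose or fell, are such log2 differences ± SE unless a fold is named.

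Of the 13680 genes, 6887 (50.3%) passed limma's test at an adjusted p under 0.05 and are called here. In LNCaP 3246 genes were higher (23.7%) and 3641 were lower (26.6%). At 2-fold or more, 1171 genes were higher (8.56%) and 1373 were lower (10.0%), at 4-fold or more 258 and 420, and at 8-fold or more 72 and 172. The median difference of all genes was -0.02. With median scaling instead of quantile normalization it was -0.12, and 34.2% of the calls, against 47.1%, were then higher in LNCaP, so that small differences depend on the scaling. The 3 arrays of the lines did not overlap for 61.6% of the genes.

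LGALS4, which encodes galectin-4, a sugar-binding protein of the gut epithelium, read 4.53, 4.64 and 4.57 on the LNCaP arrays, none of which was above background, and 5.91, 5.96 and 5.84 on the 22Rv1 arrays, all of which were. The groups did not overlap, and LGALS4 was at least 2.26-fold lower in LNCaP (-1.32 ± 0.21, adjusted p = 2.32e-05, and -0.41 without background correction). A fold is given as "at least" where none of the 3 dimmer arrays read the probe above background. It then sets the brighter mean against the lowest signal that counted as above background on the dimmer arrays, or the probe's own signal where that was higher. In 22Rv1-M4 cells with the scramble LGALS4 averaged 12.44 ± 0.03 (SD, n = 3).

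Of 14 markers of prostate luminal epithelium tested, 7 were higher and 4 were lower in LNCaP, against 23.7% and 26.6% of all genes. KLK3 and MSMB were above background on no 22Rv1 array, and DPP4 on no LNCaP array. The luminal keratins KRT8 and KRT18 averaged 8.80 ± 0.33 and 6.26 ± 0.39 in LNCaP and 9.03 ± 0.03 and 5.75 ± 0.16 in 22Rv1 (SD, n = 3 each), and the epithelial adhesion protein E-cadherin (CDH1) averaged 10.69 ± 0.28 in LNCaP and 10.44 ± 0.10 in 22Rv1. Of 14 leukocyte and endothelial markers on the array, 7 passed the filter and 2, VWF and CD68, were called, both higher in LNCaP, CD68 only with LNCaP replicate 3 in the fit. Of 14 fibroblast and muscle markers, 7 passed and 1 was higher and 3 were lower in LNCaP. The normalized intensities of the 7 leukocyte and endothelial markers summed to 811 to 2809 on the LNCaP arrays and 655 to 676 on the 22Rv1 arrays. CD68 made up most of each of these sums, and the highest was that of LNCaP replicate 3, where CD68 was brightest. The other probe of CD68 gave a difference of -0.97. Intensities of the 7 fibroblast and muscle markers summed to 235 to 283 in LNCaP and 419 to 442 in 22Rv1. The defining leukocyte genes PTPRC and CD3E did not pass the filter. The part of these markers in any other result was not tested, and in bulk RNA fewer cells with a gene and less RNA per cell cannot be told apart.

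LNCaP replicate 3 stood apart for one group of genes. Among the genes called at least 2-fold higher in LNCaP, 145 were called lower in LNCaP on the arrays with Dox. These were chosen by a mean that includes replicate 3, so its high level is partly built in. Over all 1171 genes at least 2-fold higher, LNCaP replicates 1, 2 and 3 were the highest for 316, 414 and 441. The median level of the 145 genes was 9.16, 8.98 and 10.38 on LNCaP replicates 1, 2 and 3. On 22Rv1 replicates 1, 2 and 3 it was 8.07, 8.03 and 8.22. Over the arrays with Dox it was 8.87, 8.50 and 9.03 in LNCaP and 10.31, 10.00 and 9.61 in 22Rv1. Without LNCaP replicate 3, the median difference of these 145 genes was 0.88, against 1.26 with it, 119 were still called and 48 were still called at 2-fold or more. CD68, HSD17B7, GCLM, SLC30A4 and ERAP2 belong to them and are given with their values without that array. Only 8 genes were called at least 2-fold lower in LNCaP and higher with Dox.

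The largest rises in LNCaP were cancer-testis antigens of the X chromosome, proteins that normal adult tissue makes mainly in germ cells. Of the 15 largest rises, 11 were GAGE genes. GAGE12C read 12.97, 12.99 and 12.88 in LNCaP and 6.23, 5.98 and 6.27 in 22Rv1, a difference of 6.78 ± 0.20 (adjusted p = 5.09e-17). Another GAGE probe, GAGE2A, read 11.68, 11.75 and 11.66 in LNCaP and 4.98, 4.92 and 5.28 in 22Rv1. GAGE genes are near-identical copies, so the probes cannot be told apart and count as a single signal. In the RefSeq promoter windows of GRCh38.p14, 300 bases from 250 before to 50 after the start of each gene, 10 of the 12 tested GAGE genes had a window and 7 of the 10 shared the same 300 bases. That shared window is shown because it is the sequence at the start of the genes with the largest rises. It is given 5′ to 3′ on the strand of the gene, with its 13 CG dinucleotides in capitals, and GAGE2A carries it at chrX:49589246-49589545, plus strand.
GAGE2A: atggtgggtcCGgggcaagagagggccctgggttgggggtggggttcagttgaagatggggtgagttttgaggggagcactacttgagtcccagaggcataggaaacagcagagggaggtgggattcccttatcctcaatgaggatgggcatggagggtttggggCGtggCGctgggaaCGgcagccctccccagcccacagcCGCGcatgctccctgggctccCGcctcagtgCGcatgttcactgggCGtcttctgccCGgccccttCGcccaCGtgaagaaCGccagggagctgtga

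MAGEA10, another X-linked cancer-testis antigen, read 10.92, 10.64 and 10.99 in LNCaP and 4.55, 4.49 and 4.38 in 22Rv1, at least 71.4-fold higher (6.38 ± 0.12), while its other probe gave a difference of 0.35. RAB25, a small GTPase of epithelial recycling endosomes, was at least 33.9-fold higher (9.89, 9.92 and 9.51 in LNCaP and 4.37, 4.50 and 4.27 in 22Rv1). MGMT, the enzyme that removes alkyl groups from guanine in DNA, was at least 33.9-fold higher, with 9.82, 9.67 and 9.83 in LNCaP and 4.45, 4.68 and 4.48 in 22Rv1. The clock- and hypoxia-related repressor BHLHE40 read 9.94, 10.23 and 9.51 in LNCaP and 4.70, 4.60 and 4.76 in 22Rv1 (5.20 ± 0.18).

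With the GAGE genes left out, a choice made after the values were seen, 11 more genes completed the 15 largest rises. They included the chemokine receptor ACKR3, at least 26.5-fold higher, and VASN, a cell surface protein that binds TGF-beta (4.70 ± 0.14). TNFRSF19, a receptor of the tumour necrosis factor family, rose by 4.58 ± 0.16, with 0.38 for its other probe, and the drug and cyclic nucleotide exporter ABCC4 by 4.45 ± 0.15. The adhesion protein NLGN4X and the extracellular matrix protein SPON2 were at least 14.9-fold and 11.7-fold higher. UGT2B28, an enzyme that couples androgens to glucuronic acid, rose by 3.92 ± 0.20, and the relaxin gene RLN1 by 3.86 ± 0.22. PLEKHF1 and DENND1A, which act in endosomal traffic, rose by 3.89 ± 0.14 and 3.82 ± 0.14, with 2.69 and -0.43 for the other probes of DENND1A. TFF3, a secreted mucosal repair peptide, was at least 12.8-fold higher.

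**Figure D1:**
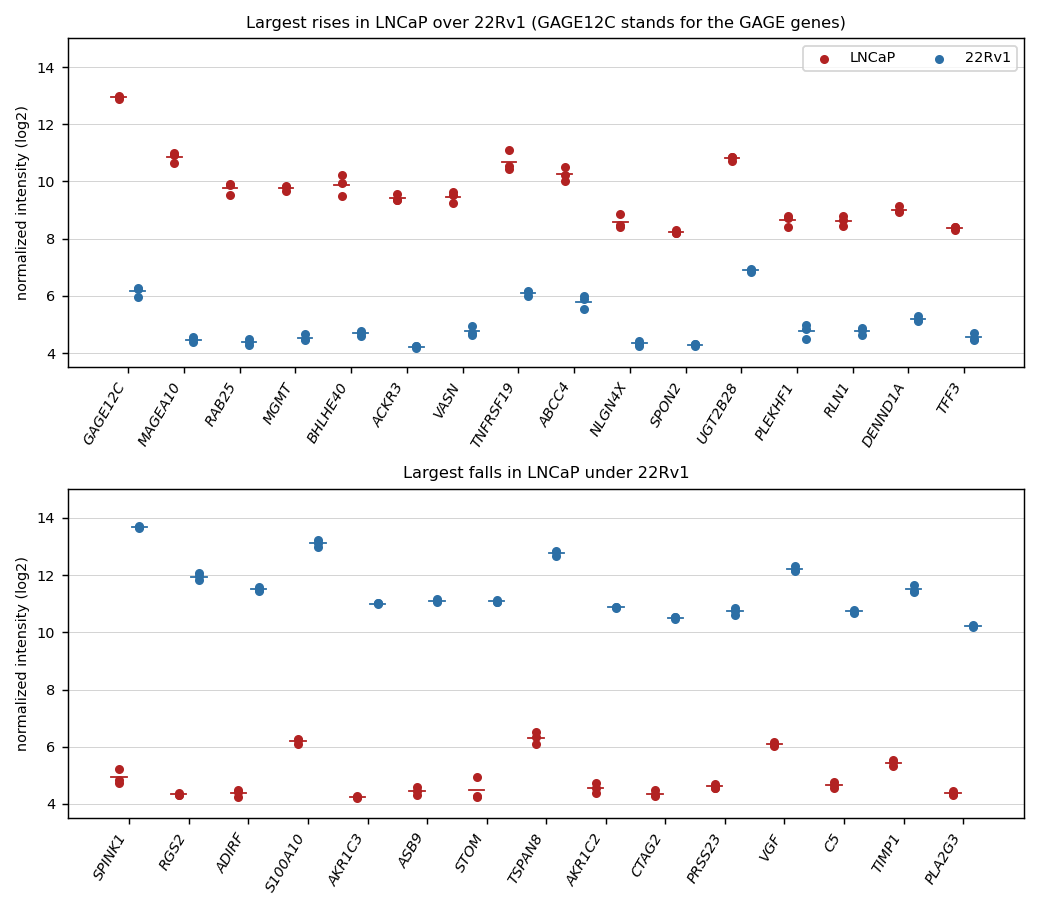
Normalized log2 intensity (y axis) of single arrays without doxycycline for the genes with the largest rises (top, GAGE12C standing for the GAGE genes) and the largest falls (bottom) in LNCaP, with LNCaP left of 22Rv1, 3 arrays each and a line at the mean. Only genes whose arrays do not overlap between the lines could be chosen, and many genes lie near the background of about 4 in the dimmer line.

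Falls of 8-fold or more outnumbered such rises, 172 to 72. SPINK1, a secreted trypsin inhibitor of pancreas and gut, had the largest difference, with 4.75, 4.85 and 5.22 on the LNCaP arrays and 13.65, 13.71 and 13.68 on the 22Rv1 arrays (-8.74 ± 0.22, adjusted p = 4.89e-18, a fold of 427). Next came RGS2, which shortens signals of G protein-coupled receptors, at 4.32, 4.31 and 4.38 in LNCaP and 11.82, 12.07 and 11.97 in 22Rv1, at least 150-fold lower. ADIRF, a regulator of fat cell formation, was at least 110-fold lower (4.23, 4.47 and 4.43 in LNCaP and 11.59, 11.47 and 11.46 in 22Rv1). S100A10, the partner of annexin A2 at the plasma membrane, read 6.26, 6.24 and 6.09 in LNCaP and 13.23, 13.00 and 13.13 in 22Rv1 (-6.92 ± 0.17).

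Aldo-keto reductases, which reduce ketosteroids and reactive carbonyls, were among the same 15 genes. AKR1C3, which makes testosterone from androstenedione, read 4.19, 4.24 and 4.29 in LNCaP and 11.02, 10.99 and 11.02 in 22Rv1, at least 77.8-fold lower. AKR1C2 was at least 70.9-fold lower, and AKR1C4, outside the 15, fell by 4.74 (SE 0.20). These neighbours on chromosome 10 are close in sequence, so their probes may share signal. The remaining large falls were the ubiquitin ligase adaptor ASB9 (at least 83.3-fold), the membrane protein STOM (-6.59 ± 0.22), the tetraspanin TSPAN8 (-6.46 ± 0.22), the cancer-testis antigen CTAG2 (at least 55.4-fold) and the serine protease PRSS23 (at least 64.4-fold). They also held the neuropeptide precursor VGF (-6.12 ± 0.19), complement C5 (-6.07 ± 0.13), the metalloproteinase inhibitor TIMP1 (-6.05 ± 0.15) and the phospholipase PLA2G3 (at least 45.3-fold).

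Genes known as targets of the androgen receptor were more often higher than lower in LNCaP. Of 40 tested, 23 were higher and 10 were lower, against 23.7% and 26.6% of all genes, and the median difference was 0.61. ABCC4 read 10.22, 10.51 and 10.02 in LNCaP and 5.98, 5.88 and 5.54 in 22Rv1 (4.45 ± 0.15). SLC45A3, the luminal prostein, read 11.21, 11.27 and 11.05 in LNCaP and 8.01, 7.73 and 7.93 in 22Rv1 (3.28 ± 0.14), and the protease TMPRSS2 10.01, 10.23 and 9.92 in LNCaP and 7.53, 7.71 and 7.40 in 22Rv1 (2.51 ± 0.21). The groups did not overlap for any of the 3.

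The kallikrein protease KLK2 read 8.18, 8.24 and 8.42 in LNCaP and 5.40, 5.24 and 5.70 in 22Rv1 (2.83 ± 0.16, adjusted p = 4.09e-12). KLK3 was low in both lines, at 6.06, 5.92 and 6.23 in LNCaP and 4.35, 4.34 and 4.40 in 22Rv1, where no array was above background, and was at least 2.6-fold higher in LNCaP. A single probe, annotated to one transcript variant, read KLK3, so its level need not stand for all KLK3 RNA. Other secreted or surface proteins of the luminal cell were higher too, among them FOLH1, the prostate-specific membrane antigen (2.23 ± 0.18), the metalloreductases STEAP1 (1.86 ± 0.22) and STEAP2 (1.68 ± 0.17), and MSMB, a secreted protein of semen (at least 2.94-fold). NDRG1, a stress-responsive gene, rose by 2.69 ± 0.20. Smaller rises were those of HERC3 (1.45 ± 0.14), EAF2 (1.20 ± 0.24), TBRG1 (1.06 ± 0.19), the channel TRPM8 (at least 2.02-fold), the transcription factor MAF (at least 1.86-fold) and the lipid phosphatase PLPP1 (1.00 ± 0.17).

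Several androgen targets went the other way. HPGD, which inactivates prostaglandins, read 5.56, 5.58 and 5.57 in LNCaP and 8.38, 8.27 and 8.33 in 22Rv1 (-2.76 ± 0.15). The proteoglycan SPOCK1 fell by 2.32 (SE 0.18), PMEPA1, an inhibitor of TGF-beta signalling, by 1.84 (SE 0.18), and the kallikrein KLK4 by 1.44 (SE 0.18). The glucocorticoid receptor chaperone FKBP5 read 9.38, 9.70 and 9.23 in LNCaP and 10.65, 10.57 and 10.63 in 22Rv1 (-1.18 ± 0.19). The elongation factor ELL2 (-1.06 ± 0.13), the kinase CAMKK2 (-0.99 ± 0.15), RAB4A (-0.84 ± 0.16), ZBTB10 (at least 1.42-fold) and the prostatic acid phosphatase ACP3 (-0.69 ± 0.20) were lower as well. The other rises were LRRN1 (0.74 ± 0.18), SMS (0.65 ± 0.17), GNMT (0.63 ± 0.15), KLK15 (0.62 ± 0.17), TMEFF2 (0.60 ± 0.25), ZBTB16 (0.53 ± 0.17) and AZGP1 (0.45 ± 0.15). Those not called were ORM1 (0.20 ± 0.12), CHRNA2 (0.046 ± 0.19), SPDEF (-0.045 ± 0.15), BMPR1B (-0.11 ± 0.19), C1orf116 (-0.18 ± 0.15), PTGER4 (-0.30 ± 0.17) and CENPN (-0.40 ± 0.17). The call of TMEFF2 was lost without any single array of the 6 except LNCaP replicate 3 (adjusted p up to 0.131). That of ZBTB16 was lost without LNCaP or 22Rv1 replicate 3 (0.0513 and 0.0686), that of AZGP1 without LNCaP replicate 1 or 3 (0.0567 and 0.0728) and that of ZBTB10 without 22Rv1 replicate 1 (0.108).

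RefSeq promoter windows were searched on both strands for an androgen response element, written as GNACA and GTNC with any 4 bases between them. Of 35116 windows 769 held it (2.19%), and of the 30 tested androgen targets with a window 4 did: KLK2, KLK3, GNMT and CENPN. The windows of KLK3 and KLK2 are shown because these neighbouring kallikreins both rose in LNCaP. Each is given 5′ to 3′ on the plus strand of GRCh38.p14 with the match in capitals. In KLK3 (chr19:50854665-50854964) the match begins 169 bases before the start, and in KLK2 (chr19:50873189-50873488) 175 bases before it. A match is a description of letters, not of binding.
KLK3: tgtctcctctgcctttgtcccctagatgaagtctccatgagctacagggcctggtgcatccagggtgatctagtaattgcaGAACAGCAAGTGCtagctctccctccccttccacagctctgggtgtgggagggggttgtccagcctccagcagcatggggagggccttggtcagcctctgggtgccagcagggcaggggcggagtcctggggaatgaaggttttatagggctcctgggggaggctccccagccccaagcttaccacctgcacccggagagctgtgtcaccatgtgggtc
KLK2: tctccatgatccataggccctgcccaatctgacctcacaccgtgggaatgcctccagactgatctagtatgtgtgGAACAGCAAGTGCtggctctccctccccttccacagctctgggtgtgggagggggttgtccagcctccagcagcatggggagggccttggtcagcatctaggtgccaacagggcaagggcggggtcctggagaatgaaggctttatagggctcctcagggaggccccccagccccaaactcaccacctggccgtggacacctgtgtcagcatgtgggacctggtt

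**Figure D2:**
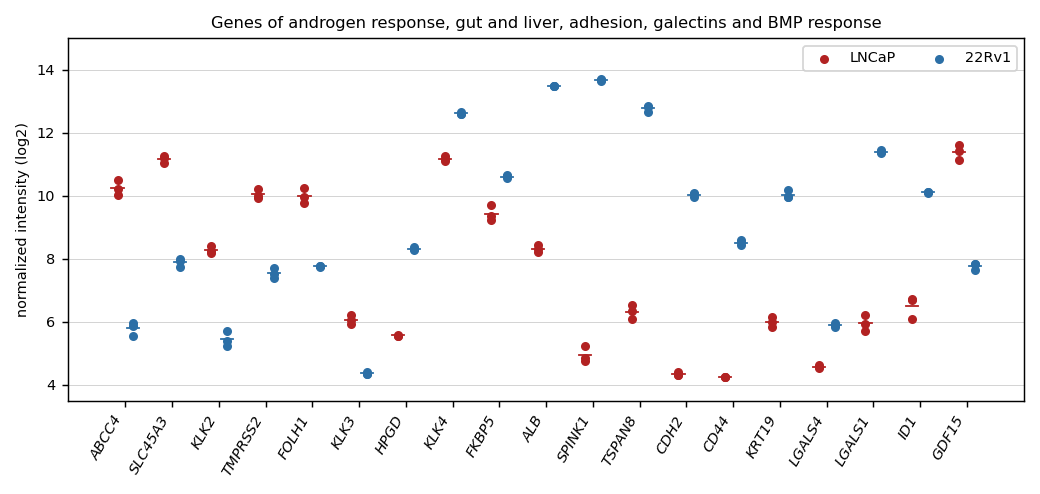
Normalized log2 intensity (y axis) on each array without doxycycline for 19 genes of androgen response, gut and liver, adhesion, galectins and BMP response, with LNCaP left of 22Rv1, 3 arrays each and a line at the mean. ABCC4 to KLK3 and GDF15 are higher in LNCaP, and the genes from HPGD to ID1 are lower.

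Enzymes that make or inactivate steroids were called in both directions. Of 23 tested, 12 were higher and 4 were lower in LNCaP (median 0.35). The 4 lower ones were AKR1C2, AKR1C3, AKR1C4 and the dehydrogenase HSD17B11 (-3.07 ± 0.25), although 1 of the other 2 probes of HSD17B11 gave 0.36. The glucuronosyltransferases, which tag androgens for export, were higher: UGT2B28 read 10.86, 10.70 and 10.87 in LNCaP and 6.91, 6.93 and 6.82 in 22Rv1, UGT2B11 rose by 1.82 ± 0.22, UGT2B17 by 1.30 ± 0.17 and UGT2B15 by 0.51 ± 0.20 (adjusted p = 0.0406), a call lost without any single array except LNCaP replicate 3 (adjusted p up to 0.251, with a difference of 0.30 without LNCaP replicate 2). These UGT2B genes are alike in sequence, so their probes may share signal. HSD11B2, which inactivates cortisol, rose by 2.49 ± 0.14 and HSD17B1, which makes oestradiol, by 1.62 ± 0.18. HSD17B7 read 11.03, 11.05 and 12.14 in LNCaP and 10.19, 10.04 and 10.24 in 22Rv1 (1.25 ± 0.27), and 0.89 without LNCaP replicate 3.

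Among partners of the androgen receptor, 4 of 16 were higher and 5 were lower, near the 23.7% and 26.6% of all genes. The pioneer factor GATA2 (7.67, 8.22 and 7.88 in LNCaP and 6.61, 6.25 and 6.39 in 22Rv1), the coactivator NCOA1 (1.21 ± 0.15) and the prostate homeobox factor HOXB13 (0.99 ± 0.18) were higher, as was GREB1 (0.45 ± 0.16). The mineralocorticoid receptor NR3C2 (-1.74 ± 0.16), the coactivator NCOA4 (-0.55 ± 0.14), the glucocorticoid receptor NR3C1 (at least 1.08-fold) and the chromatin remodeller CHD1 (-0.51 ± 0.17) were lower, and GATA3 was at least 4.34-fold lower. The calls of CHD1 (adjusted p = 0.0877 without LNCaP replicate 1) and GREB1 (0.0721, 0.0818 and 0.0709 without LNCaP replicate 1 or 2 or 22Rv1 replicate 3) rested on single arrays. FOXA1, the factor that opens chromatin for the receptor, read 11.92, 12.27 and 11.59 in LNCaP and 12.08, 11.96 and 12.02 in 22Rv1 and was not called (-0.093 ± 0.15, adjusted p = 0.656).

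ETS transcription factors, which include drivers of prostate cancer fusions, were called lower more often than higher. Of 22 tested, 4 were higher and 10 were lower (median -0.28). ETV5, which follows growth factor signalling, was at least 4.77-fold lower (4.25, 4.17 and 4.34 in LNCaP and 7.02, 6.90 and 7.01 in 22Rv1), ETV4 at least 2.68-fold and ETS2 at least 2.09-fold. ELF3 (-1.43 ± 0.15), ELF4 (-1.17 ± 0.14), ELF5 (-1.13 ± 0.23), ETV6 (-0.73 ± 0.17), GABPA (-0.73 ± 0.23), ELF1 (-0.62 ± 0.15) and ELF2 (-0.61 ± 0.14) were the other falls, and the call of GABPA was lost without LNCaP replicate 1 (adjusted p = 0.0788), LNCaP replicate 3 (0.0553) or 22Rv1 replicate 2 (0.0741). The epithelial factor EHF was the main exception, with 8.55, 9.61 and 8.24 in LNCaP and 6.24, 6.04 and 6.18 in 22Rv1 (2.64 ± 0.25). ETV2 (at least 1.61-fold), ELK4 (0.62 ± 0.17) and FLI1 (at least 1.15-fold) rose too. SPDEF, SPI1 (0.0018 ± 0.14), ETS1 (-0.05 ± 0.15), ELK1 (-0.072 ± 0.15), ETV3 (-0.088 ± 0.14), ETV7 (-0.16 ± 0.17), FEV (-0.27 ± 0.19) and ERF (-0.28 ± 0.16) were not called, though ERF was without LNCaP replicate 3 (-0.42, adjusted p = 0.0474). The probes of ETV1 and ERG did not pass the detection filter and were not tested.

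Markers of basal and of neuroendocrine cells were mostly lower in LNCaP. Of 7 basal markers tested, 1 was higher and 5 were lower. The hyaluronan receptor CD44 read 4.24, 4.24 and 4.25 in LNCaP, with no array above background, and 8.52, 8.43 and 8.60 in 22Rv1, at least 13.9-fold lower. P-cadherin (CDH3) was at least 6.02-fold lower, LAMB3 at least 1.13-fold, and caveolin (CAV1) fell by 1.65 (SE 0.16), with 0.17 for its other probe. The laminin receptor subunit ITGA6 was at least 2.4-fold higher.

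Of 17 neuroendocrine genes tested, 2 were higher and 10 were lower (median -1.46). The granin SCG3 read 4.22, 4.28 and 4.34 in LNCaP and 9.02, 9.11 and 9.09 in 22Rv1, at least 20.4-fold lower. The vesicle proteins SNAP25 (at least 8.49-fold), SYP (at least 5.69-fold) and CHGB (at least 7.17-fold) went the same way, as did the factor ONECUT2 (-1.68 ± 0.20) and the neuronal enolase ENO2 (-1.63 ± 0.19). DDC, which makes dopamine and serotonin, rose by 1.64 ± 0.21 and UCHL1 by 1.25 ± 0.20. CHGA, a widely used marker, averaged 4.55 ± 0.16 in LNCaP and 4.79 ± 0.19 in 22Rv1 and was not called. Luminal markers were mixed: 7 of 14 were higher and 4 were lower. The lower ones were KRT19 (6.15, 5.85 and 6.00 in LNCaP and 10.19, 9.97 and 9.97 in 22Rv1), CD24 (-3.06 ± 0.20), DPP4 (at least 2.31-fold) and ACP3.

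Genes of gut and liver were called lower in LNCaP more often than higher. Of 17 intestinal epithelium genes tested, 2 were higher and 11 were lower in LNCaP, all 11 at least 2-fold, with a median of -2.23. TSPAN8 read 6.53, 6.09 and 6.35 in LNCaP and 12.82, 12.68 and 12.86 in 22Rv1. AGR2, a protein disulfide isomerase of mucus cells, read 6.11, 5.93 and 6.49 in LNCaP and 10.64, 10.86 and 10.76 in 22Rv1 (-4.58 ± 0.38), and the mucin MUC13 was at least 9-fold lower. TFF3 and sucrase-isomaltase (SI, 0.46 ± 0.14) were the 2 rises.

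Of 16 liver-type secreted proteins, 3 were higher and 7 were lower. Albumin (ALB), the main protein of blood plasma, read 8.30, 8.23 and 8.45 in LNCaP and 13.48, 13.49 and 13.48 in 22Rv1, a fall of 5.16 (SE 0.17, adjusted p = 2.82e-16). Paraoxonase (PON1) was at least 12.1-fold lower, apolipoprotein H (APOH) at least 7.79-fold, and APOC1 fell by 3.71 (SE 0.20). APOA1 (1.13 ± 0.17), SERPINA3 (at least 1.14-fold) and CFB (at least 1.16-fold) were higher, but SERPINA3 lost the call without LNCaP replicate 3 or 22Rv1 replicate 2 (adjusted p = 0.0729 and 0.0584), and CFB without any single array except LNCaP replicate 2 or 22Rv1 replicate 1 (up to 0.150), so that 1 of 16 was higher without LNCaP replicate 3 and in the deposited matrix. Of 12 factors of gut and liver identity, 1 was higher, CEBPA (1.96 ± 0.14), and 8 were lower, among them SOX9 (-2.61 ± 0.17) and HNF4G (at least 2.81-fold).

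The promoter windows were also searched on both strands for an element of the hepatocyte factor HNF1, written as GTTA and TNATT with any base between them, which 330 of 35116 windows held (0.940%). The ALB window had no exact match, although its letters gttaataatc differ from the searched element only in the last one. The SPINK1 window, shown because SPINK1 had the largest fall, held one on the opposite strand 54 bases before the start, in capitals below as read on the strand of the gene. It is given 5′ to 3′ on the minus strand, the strand of the gene, at chr5:147831622-147831921 of GRCh38.p14. Of the other members with a window, FGA and AFP of the liver list (2 of 12) held the element and none of the intestinal list did.
SPINK1: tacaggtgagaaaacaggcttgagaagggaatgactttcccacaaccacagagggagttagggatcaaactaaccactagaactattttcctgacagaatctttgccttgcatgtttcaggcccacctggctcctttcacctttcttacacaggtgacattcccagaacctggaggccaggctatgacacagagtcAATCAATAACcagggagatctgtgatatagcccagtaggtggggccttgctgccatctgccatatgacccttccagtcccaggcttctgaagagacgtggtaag

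Some surface and adhesion proteins differed widely. N-cadherin (CDH2) read 4.32, 4.31 and 4.41 in LNCaP, where no array was above background, and 10.05, 10.08 and 9.97 in 22Rv1, at least 39.6-fold lower. The factor TWIST1 fell by 2.73 (SE 0.18) and CDH6 was at least 2.14-fold lower. CDH26 (at least 8.26-fold), the protocadherins PCDHB5 (at least 3.4-fold) and PCDH7 (1.38 ± 0.14) and the tight junction protein CLDN3 (1.49 ± 0.20) were higher. E-cadherin (0.25 ± 0.19) and vimentin (VIM, -0.30 ± 0.16) were not called. In all, 6 of 21 cadherins and EMT factors were higher and 7 were lower, against 23.7% and 26.6% of all genes.

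Of 16 integrin subunits 4 were higher and 3 were lower, against 23.7% and 26.6% of all genes. The lower ones were ITGB5 (8.33, 8.32 and 8.27 in LNCaP and 10.57, 10.45 and 10.53 in 22Rv1), ITGA2 (-1.22 ± 0.17) and ITGA3 (-1.01 ± 0.18). Annexins, caveolar and S100 proteins, which organise the inner membrane face, were mostly lower, 12 of 23, with 2 higher (median -0.54). S100A6 read 5.44, 5.22 and 5.25 in LNCaP and 9.69, 9.79 and 9.87 in 22Rv1, and ANXA2 4.80, 4.62 and 4.57 in LNCaP and 8.14, 8.08 and 8.24 in 22Rv1 (-3.49 ± 0.39). ANXA6 (1.08 ± 0.19) and ANXA9 (at least 1.12-fold) were the rises. Galectin-1 (LGALS1), which binds the same kind of sugar, read 6.22, 5.92 and 5.70 in LNCaP and 11.35, 11.46 and 11.40 in 22Rv1 (-5.46 ± 0.19, adjusted p = 7.50e-16). LGALSL fell by 1.62 (SE 0.14) and LGALS8 by 0.34 (adjusted p = 0.0387), while the galectin ligand LGALS3BP was at least 1.7-fold higher. C1GALT1 and its chaperone C1GALT1C1, which build the sugar chain that galectins bind, were higher (0.61 ± 0.20 and 0.58 ± 0.20, adjusted p = 0.0148 and 0.0198). The call of LGALS8 was lost without any single array except 22Rv1 replicate 1 (adjusted p up to 0.123), and its other probes gave -0.53 and 0.12. That of C1GALT1 was lost without LNCaP replicate 1 or 22Rv1 replicate 3 (0.0528 and 0.0603), and that of C1GALT1C1 without LNCaP replicate 1 or 2 or 22Rv1 replicate 1 (0.0582, 0.0802 and 0.0946). Of 11 genes tested in this list, 3 were higher (1 with median scaling) and 4 were lower, against 23.7% and 26.6% of all genes.

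Cancer-testis antigens outside the GAGE family went both ways, with 11 of 27 listed genes higher and 8 lower. The shares of all genes were 23.7% and 26.6%. VCX2 (3.22 ± 0.15), PAGE1 (at least 5.15-fold) and MAGEC2 (at least 4.16-fold) were higher. MAGEA4 read 6.83, 6.72 and 6.38 in LNCaP and 10.25, 10.19 and 9.98 in 22Rv1, SSX2 5.15, 5.33 and 4.99 in LNCaP and 8.85, 9.10 and 8.97 in 22Rv1, and CTAG1B, which codes for NY-ESO-1, was at least 7.18-fold lower. CTAG1B and CTAG2 are near copies, as are the SSX genes, so members of each pair or family may share signal. In 22Rv1-M4 scramble cells MAGEA10 averaged 4.34 ± 0.02 and CTAG2 10.83 ± 0.06 (SD, n = 3 each).

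Most genes of DNA replication and the G1/S transition were lower in LNCaP. Of 36 tested, 26 were lower and 2 were higher (median -0.72). Cyclin D1 (CCND1) read 10.74, 11.05 and 10.85 in LNCaP and 13.51, 13.51 and 13.40 in 22Rv1 (-2.60 ± 0.17), E2F2 fell by 2.31 (SE 0.16), the polymerase POLE by 2.34 (SE 0.15) and the uracil glycosylase UNG by 1.93 (SE 0.15), with -0.52 and 0.25 for its other probes. Cyclin E1 (CCNE1, 1.41 ± 0.17) and thymidine kinase (TK1, 0.38 ± 0.13) were the rises, TK1 not without LNCaP replicate 1 or 3 or 22Rv1 replicate 3 (adjusted p = 0.0620, 0.0619 and 0.0654). Of 44 mitotic genes 12 were lower, near the 26.6% of all genes. Only 6 were higher (2 with median scaling), against 23.7% of all genes. The mitotic kinase CDK1 rose by 1.52 ± 0.24, and the motor KIF11 (-1.23 ± 0.19) and the midzone protein PRC1 (-1.21 ± 0.16) were among those lower.

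Calls among DNA repair genes ran both ways, at shares near the 23.7% higher and 26.6% lower of all genes. Of 23 tested, 7 were higher (2 with median scaling) and 6 were lower, and of those called MGMT and MRE11 (1.34 ± 0.15, with -0.06 and 0.36 for its other probes) alone passed 2-fold. The other higher ones were RAD54L (0.62 ± 0.16), RAD51B (0.48 ± 0.15), PMS2 (0.47 ± 0.15), MLH3 (0.46 ± 0.17) and CHEK2 (0.31 ± 0.13). BRCA1 (-0.97 ± 0.12), XRCC1 (-0.97 ± 0.15), EXO1 (-0.79 ± 0.13), ATM (-0.66 ± 0.17), MSH6 (-0.56 ± 0.15) and CHEK1 (-0.48 ± 0.15) were lower. MSH3 (0.077 ± 0.13), PMS1 (-0.02 ± 0.17), ATR (0.076 ± 0.14), PALB2 (-0.044 ± 0.13), RAD51C (0.47 ± 0.22), RAD51D (-0.13 ± 0.16), RAD52 (-0.15 ± 0.14), PARP1 (-0.32 ± 0.18), FANCI (-0.33 ± 0.16) and NBN (-0.40 ± 0.17) were not called. Single arrays decided several of these calls. RAD51B lost it without LNCaP replicate 2 or 22Rv1 replicate 1 (adjusted p = 0.0588 and 0.0859), MLH3 without LNCaP replicate 1 or 22Rv1 replicate 2 or 3 (up to 0.243, with a difference of 0.25 without LNCaP replicate 1), and PMS2 without LNCaP replicate 1 or 2 or 22Rv1 replicate 3 (up to 0.0620). CHEK2 lost it without any single array except LNCaP replicate 2 (up to 0.160), and CHEK1 without LNCaP replicate 3 (0.0955). NBN gained it without replicate 2 of LNCaP or 22Rv1 (0.0136 and 0.0454), and PARP1 without LNCaP replicate 2 (0.0480).

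Among p53 targets 12 of 26 were higher (7 with median scaling) and 7 were lower (4 without LNCaP replicate 3). ZMAT3 read 11.77, 11.62 and 12.38 in LNCaP and 10.47, 10.24 and 10.70 in 22Rv1, with -0.27 and 0.44 for its other probes, and the death receptor TNFRSF10B rose by 1.18 ± 0.14, with -0.57 and 0.90 for its others. TP53INP1 (1.18 ± 0.18) and the BH3 protein PMAIP1 (1.02 ± 0.28) rose, and CDKN2A (-1.30 ± 0.16) and RRM2B (-0.93 ± 0.17) fell, the last with 0.54 for its other probe. Of apoptosis regulators, 8 of 33 were higher and 11 were lower, against 23.7% and 26.6% of all genes. CASP4 (1.96 ± 0.18) led the rises. The death receptor TNFRSF21 (-2.48 ± 0.15) and the apoptosome core APAF1 (-1.62 ± 0.20, with 0.04 for its other probe) led the falls. BCL2L1 rose by 1.23 ± 0.13 and BCL2 fell by 1.01 (SE 0.18).

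Of the 36 lists, hypoxia and glycolysis genes had the largest share higher in LNCaP, with 27 of 38 higher and 4 lower (median 0.86). The stress response gene DDIT4 read 12.33, 12.43 and 12.19 in LNCaP and 8.99, 9.13 and 8.91 in 22Rv1 (3.31 ± 0.16). ANKRD37 read 9.17, 8.68 and 9.20 in LNCaP and 5.87, 5.83 and 5.69 in 22Rv1, and the phosphofructokinase PFKP 9.85, 9.86 and 9.78 in LNCaP and 7.10, 6.91 and 6.85 in 22Rv1. ANGPTL4, a secreted lipase inhibitor, was at least 17.9-fold lower, and ENO2, CA12 (-1.62 ± 0.19) and ADM (-1.28 ± 0.18) were the other falls. On the arrays with Dox, 8 of the 38 were higher and 19 were lower in LNCaP, against 3417 and 3976 of all 13680 genes (54.0% in either direction), and the median was -0.34.

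Genes of cholesterol synthesis were mostly lower in LNCaP, with 13 of 22 genes lower and 1 higher (median -0.93). The sterol oxidase MSMO1 read 8.95, 9.08 and 8.92 in LNCaP and 11.36, 11.47 and 11.44 in 22Rv1, with -1.84 and 0.18 for its other probes, and HMGCS1, which makes the precursor of mevalonate, 9.12, 9.31 and 9.38 in LNCaP and 11.51, 11.63 and 11.76 in 22Rv1. LSS (-1.83 ± 0.15) and IDI1 (-1.70 ± 0.19) followed, and HSD17B7 was the rise. Genes of fatty acid synthesis and storage were split, 9 of 28 higher and 8 lower, against 23.7% and 26.6% of all genes. The desaturase FADS2 rose by 3.02 ± 0.17, malic enzyme (ME1) by 2.89 ± 0.15 and the acyl-CoA ligase ACSL1 by 2.54 ± 0.13, while the lipid droplet protein PLIN2 fell by 1.10 (SE 0.16).

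Of 24 genes of polyamine metabolism and zinc transport 9 were higher (5 with median scaling) and 6 were lower, against 23.7% and 26.6% of all genes. SAT1 (1.43 ± 0.15), which breaks down polyamines, was among the higher ones. The zinc exporter SLC30A1 (-1.65 ± 0.19) was among the lower ones. The zinc transporter SLC30A4 read 6.01, 5.95 and 7.23 in LNCaP and 5.01, 4.99 and 4.68 in 22Rv1, with a difference of 1.08 without LNCaP replicate 3. Metallothioneins, which bind zinc, were uneven: MT1X (2.04 ± 0.43) and MT2A (1.41 ± 0.44) rose, and MT1E (-2.77 ± 0.26), MT1G (-2.18 ± 0.40), MT1H (-1.77 ± 0.27) and MT1M (at least 2.99-fold) fell. Their sequences are alike and probes may share signal. Of glutathione transferases and NRF2 targets 9 of 35 were higher (4 with median scaling), near the 23.7% of all genes. Another 15 were lower, against 26.6%. GSTM1 read 4.75, 4.90 and 4.83 in LNCaP and 9.45, 9.24 and 9.27 in 22Rv1, GSTM2 fell by 3.60 (SE 0.14), GSTO2 by 2.69 (SE 0.18) and GCLC, a subunit of the first enzyme of glutathione synthesis, by 2.25 (SE 0.14). Its partner GCLM read 7.83, 7.64 and 9.21 in LNCaP and 6.92, 6.63 and 6.62 in 22Rv1, with a difference of 1.01 without LNCaP replicate 3. GSTP1 rose by 0.69 ± 0.20, but by 0.44 without LNCaP replicate 3 (adjusted p = 0.0605, against 0.0057 with it).

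Interferon and JAK-STAT genes showed no common direction, with 9 of 39 higher and 12 lower, near the 23.7% and 26.6% of all genes. IFI6 read 9.41, 9.43 and 9.70 in LNCaP and 5.75, 5.80 and 5.82 in 22Rv1, IFIT1 was at least 2.82-fold higher, and the transcription factor STAT6 fell by 3.10 (SE 0.16). The probe of JAK1 did not pass the detection filter. In antigen presentation 9 of 22 were higher and 6 were lower. HLA-DMA, which loads class II molecules, read 8.89, 8.41 and 8.68 in LNCaP and 5.19, 5.17 and 5.46 in 22Rv1, HLA-F was at least 2.99-fold higher, HLA-B rose by 1.40 ± 0.22, and HLA-DQB1 was at least 7.52-fold lower. HLA genes are alike in sequence, so these values are uncertain. ERAP2 read 11.87, 11.76 and 12.53 in LNCaP and 10.66, 10.50 and 10.84 in 22Rv1 (1.38 ± 0.24), and 1.15 without LNCaP replicate 3. CD68 read 9.60, 9.10 and 11.30 in LNCaP and 8.90, 8.90 and 8.90 in 22Rv1, and without LNCaP replicate 3 its difference was 0.45 with an adjusted p of 0.172, while its other probe gave -0.97.

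In the PI3K pathway 8 of 28 genes were higher (5 with median scaling) and 7 were lower, near the 23.7% and 26.6% of all genes. PIK3CD was at least 5.06-fold higher, PIK3R1 rose by 1.84 ± 0.15, and the insulin receptor substrates IRS2 (5.21, 5.30 and 4.83 in LNCaP and 8.21, 8.27 and 8.32 in 22Rv1) and IRS1 (at least 3.19-fold) were lower. Among ERBB receptors and ligands 5 of 12 were higher (3 with median scaling or without LNCaP replicate 3) and 3 were lower. LRIG1, which dampens ERBB receptors, read 8.93, 9.02 and 8.68 in LNCaP and 5.47, 5.91 and 5.65 in 22Rv1, EGFR rose by 0.83 ± 0.18 and ERBB2 by 0.70 ± 0.14, and GRB7 fell by 1.43 (SE 0.15). ERBB3 fell by 0.63 (SE 0.19) by its brightest probe, but its other 2 probes gave 0.17 and 0.97, and the mean of the probes was not called.

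The BMP and TGF-beta list held 7 higher (4 with median scaling) and 13 lower genes of 31. All 4 ID genes, inhibitors of differentiation that BMP signals switch on, were lower. ID1 read 6.73, 6.09 and 6.68 in LNCaP and 10.12, 10.13 and 10.10 in 22Rv1, ID2 6.71, 6.29 and 6.30 in LNCaP and 10.69, 10.68 and 10.83 in 22Rv1, and ID3 8.02, 7.42 and 7.85 in LNCaP and 11.08, 10.82 and 11.00 in 22Rv1, while ID4 was at least 6.07-fold lower. BAMBI, a decoy receptor that blocks these signals, read 10.36, 10.50 and 10.17 in LNCaP and 6.59, 6.53 and 6.65 in 22Rv1, and the stress cytokine GDF15 11.41, 11.61 and 11.15 in LNCaP and 7.82, 7.84 and 7.66 in 22Rv1. Of Wnt genes 8 of 31 were higher (5 with median scaling) and 10 were lower, near the 23.7% and 26.6% of all genes. The inhibitor DKK1 (at least 7.04-fold) and LEF1 (-1.93 ± 0.13) led the falls. Among HOX genes HOXB13 alone was higher and 8 of 18 were lower, with HOXB8 at least 14.8-fold, HOXB7 at least 8.19-fold, HOXB5 at -3.53 ± 0.19 and HOXC4 at -1.80 ± 0.18. Of chromatin regulators 5 of 32 were higher (3 with median scaling), with the demethylase KDM6A at 2.16 ± 0.14 and CBX2 at 2.01 ± 0.13, and 12 were lower, with SMARCA1 at least 4.34-fold, ARID1A at -1.32 ± 0.22 and EZH2 at -0.92 ± 0.15.

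**Figure D3:**
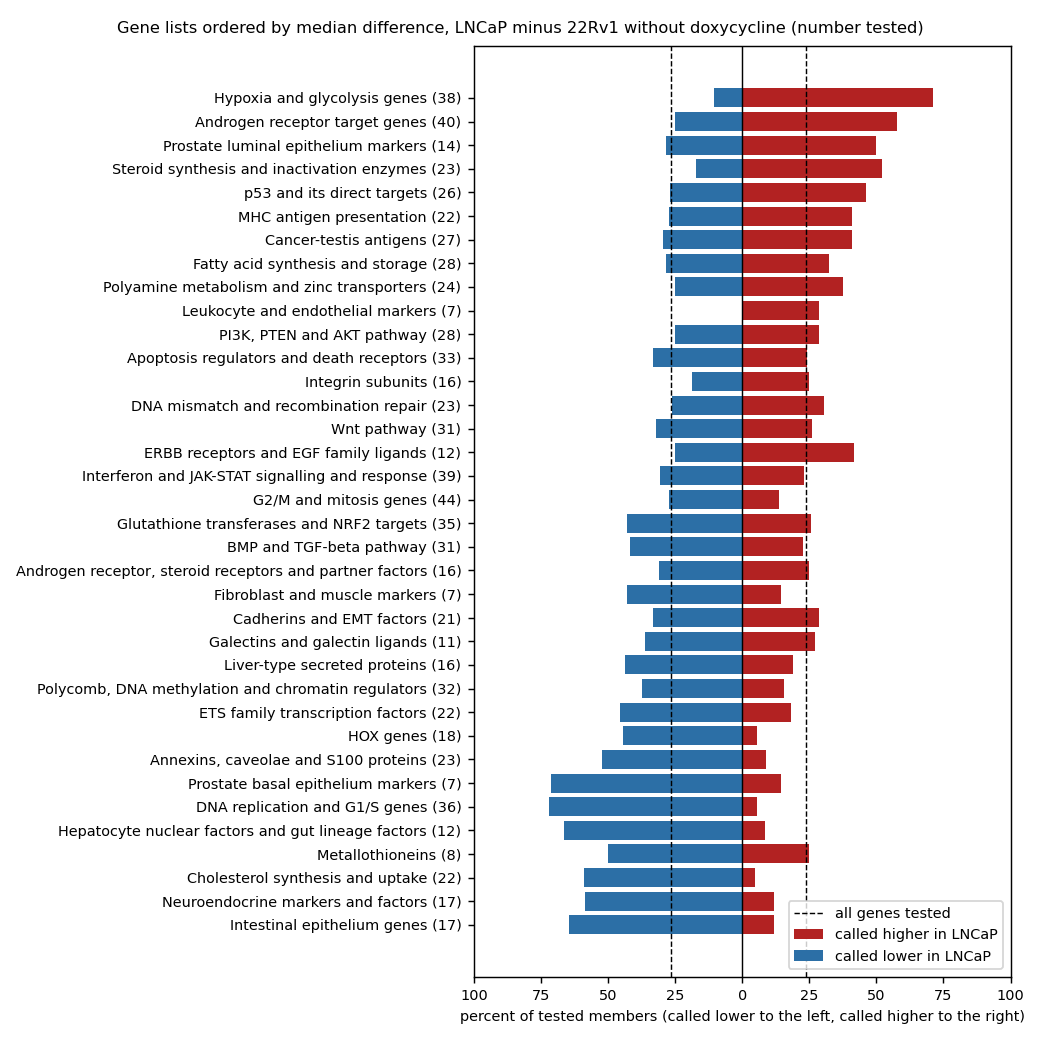
Percent of the tested members of each of 36 gene lists (number in brackets) called lower (left, blue) or higher (right, red) in LNCaP, ordered by the median difference, with dashed lines at the 26.6% and 23.7% of all genes. Hypoxia and androgen receptor target genes stand at the top, with 27 of 38 and 23 of 40 higher, and intestinal epithelium genes at the bottom, with 11 of 17 lower.

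Different probes of a gene did not always give the same difference. Of 122 named genes that were called and had another probe, 51 had one that gave under 0.33 times the difference, or the opposite sign (18 of them). The values given here are those of the probe with the highest mean. Among the large falls, the other probe gave -0.48 for ANXA2, -0.99 for CD44, -0.49 for CD24, -0.57 for ETV5, -0.67 for DKK1 and -0.76 for GSTM2, and the other 2 probes of ANGPTL4 gave -0.56 and -0.46. Among the rises, the lowest of the other probes gave 0.11 for PRKACB, 0.26 for PIK3R1, 0.71 for VCX2, 1.08 for CDH26 and 1.10 for NLGN4X, and the single other probe gave 0.19 for HLA-F, 0.29 for ERAP2, 0.17 for BCL2L1 and 0.68 for MAGEC2. The other probes of PMS2 gave -0.26 and 0.35, those of LSS -0.54 and -0.40, those of PMEPA1 -1.65 and -0.36 and those of SMAGP -1.74 and -0.24. A single other probe gave -0.25 for SLC38A1, -0.35 for LARP4, -0.14 for CAMKK2, -0.37 for MT1H, 0.15 for TBRG1 and 0.08 for C1GALT1C1.

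Genes of chromosome 12 were lower in LNCaP along the whole chromosome. Of its 717 tested genes, 378 were lower (52.7%) and 55 were higher (7.67%), against 26.6% and 23.7% of all genes, and the median difference was -0.46, against -0.02. Divided into blocks of about 50 neighbouring tested genes, a size chosen after the values were seen, every one of the 14 blocks of chromosome 12 had a median under -0.3, from -0.31 to -0.70. Of the other blocks, 15 of 258 did, and 4 of all 272 lay above 0.3. On the arrays with Dox, which share no sample with these, 48.8% of the genes of chromosome 12 were lower and 10.5% were higher, with a median of -0.32. All 14 block medians were then below 0, but not all were under -0.3. They ran from -0.04 (SRGAP1 to OTOGL) and -0.10 (GNB3 to PRR4) to -0.80 (BCAT1 to ARID2). In the deposited log2 matrix 52.3% were lower, with a median of -0.22 on its narrower scale, and with median scaling 56.6% were lower. Gene copies were not measured.

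Chromosomes 6 and 7 came next, with 38.1% and 36.4% of their genes lower (medians -0.16 and -0.13). On chromosome 6, 3 consecutive blocks, from CUL9 to POPDC1, had medians of -0.41, -0.53 and -0.50 and held 25, 26 and 31 of its 275 lower genes. A block of chromosome 7 from GRM3 to PDAP1 stood at -0.50, and 2 neighbouring blocks of chromosome 1 from NECAP2 to SFN stood at -0.44 and -0.53. On chromosome 19, 2 neighbouring blocks from ZNF225 to RASIP1 stood at -0.42 and -0.33. The remaining 7 blocks under -0.3 lay between -0.35 and -0.31, on chromosomes 1, 2, 4, 7, 9, 13 and 16. The blocks above 0.3 lay on chromosomes 2 (PTPN4 to R3HDM1), 5 (FBXO38 to CCNG1), 9 (OR1B1 to BBLN) and 11 (FZD4-DT to ALKBH8). Medians of all other chromosomes lay between -0.08 and 0.10.

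**Figure D4:**
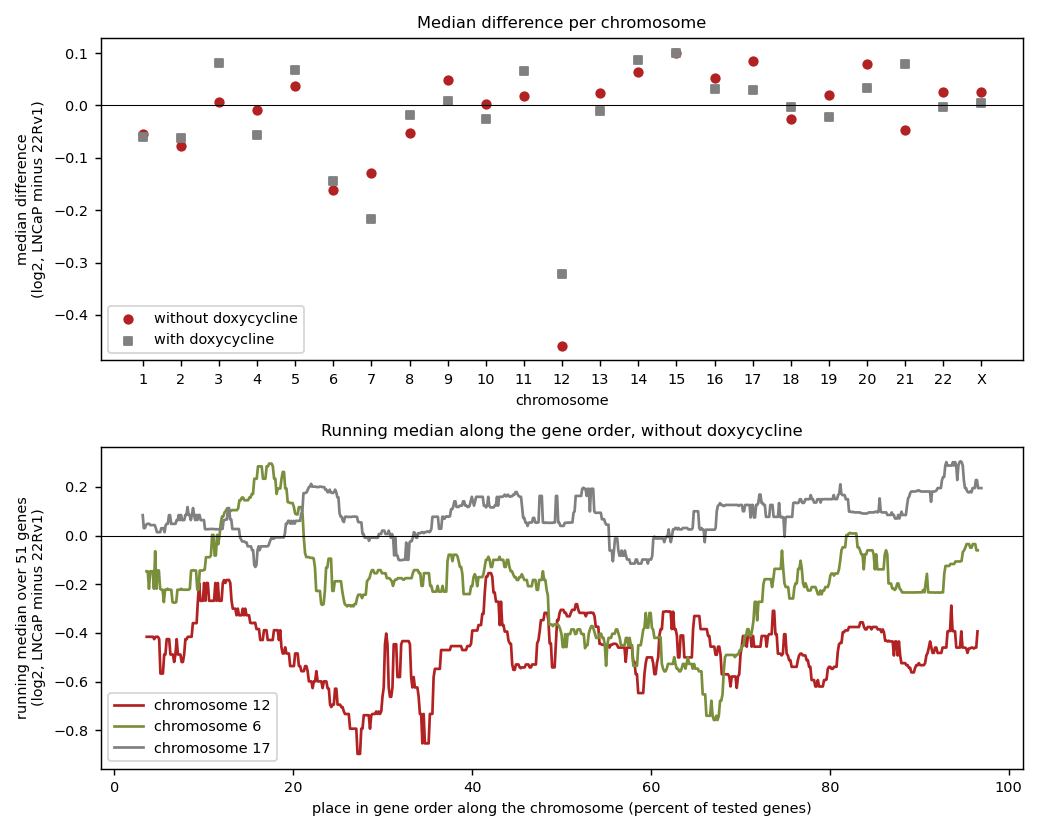
Top, median log2 difference (LNCaP minus 22Rv1) of the tested genes of each chromosome on the arrays without (circles) and with doxycycline (squares). Bottom, running median over 51 genes along the gene order of chromosomes 12, 6 and 17 without doxycycline. Chromosome 12 stands apart at -0.46 without and -0.32 with doxycycline and stays below 0 along its length, while chromosome 6 dips over part of it.

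Neighbouring genes also moved in runs. Runs of at least 4 adjacent tested genes, each called the same way and at least 1.5-fold (35.9% of all genes in either direction), numbered 76, of which 28 were higher and 48 were lower in LNCaP. The longest, with 11 genes, ran from GAGE10 to PAGE1 on the X chromosome and is mostly a set of copies. The next 3 all lay on chromosome 12 and were lower. The first held 8 genes from TMEM117 to SLC38A2, among them NELL2, a secreted neural protein (4.52, 4.33 and 4.42 in LNCaP and 8.96, 8.78 and 9.09 in 22Rv1), the chromatin remodeller ARID2 (-1.98 ± 0.17) and the glutamine transporters SLC38A1 (-1.21 ± 0.15) and SLC38A2 (-0.90 ± 0.15). The second held 8 genes from RACGAP1 (-1.08 ± 0.14) to DIP2B (-1.50 ± 0.17), with the RNA-binding protein LARP4 (-1.43 ± 0.17) and the actin-binding protein LIMA1 (-1.30 ± 0.18) between them. The third held 7 genes from TMT1A (-2.09 ± 0.18) to SMAGP (-1.92 ± 0.13), with DAZAP2 (-2.27 ± 0.15), CSRNP2 (-2.21 ± 0.12) and the iron transporter SLC11A2 (-0.88 ± 0.15). The fifth, on chromosome 1, was higher and held 7 genes from TTLL7 (0.60 ± 0.17, with -0.24 for its other probe) to CTBS (1.98 ± 0.12), with the protein kinase A catalytic subunit PRKACB (2.72 ± 0.18) and the G protein subunit GNG5 (1.48 ± 0.16) among them.

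Most of the large differences were also present on the arrays with Dox, in which galectin-4 was induced in both lines. There 7393 genes were called. Of the 6887 genes called without Dox, 4860 (70.6%) were called the same way and 357 the other way, and of the 2544 called at 2-fold or more, 2203 (86.6%) were called the same way and 153 the other way. The line difference itself differed between the conditions for 2572 genes (18.8%, interaction term in limma), and for 921 (36.2%) of the 2544 called at 2-fold or more. MAGEA10 stood at 6.42 ± 0.12, RGS2 at -7.55 ± 0.13, MGMT at 5.07 ± 0.13 and LGALS1 at -5.52 ± 0.19 with Dox, close to their values without it.

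For other genes the baseline contrast was not kept. ALB stood at 0.17 with Dox (adjusted p = 0.434), against -5.16 without it, and averaged 8.09 ± 0.45 in LNCaP and 7.92 ± 0.23 in 22Rv1 with Dox. As fitted differences, CDH2 stood at -1.55 with Dox and -5.68 without, AKR1C2 at -1.45 and -6.32, and BHLHE40 at 2.07 and 5.20. FOLH1 had the wider gap with Dox, at 4.91 with it and 2.23 without. ERBB2 stood at -2.44 with Dox and 0.70 without, and LGALS4 at 0.65 and -1.32, each with the opposite sign.

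**Figure D5:**
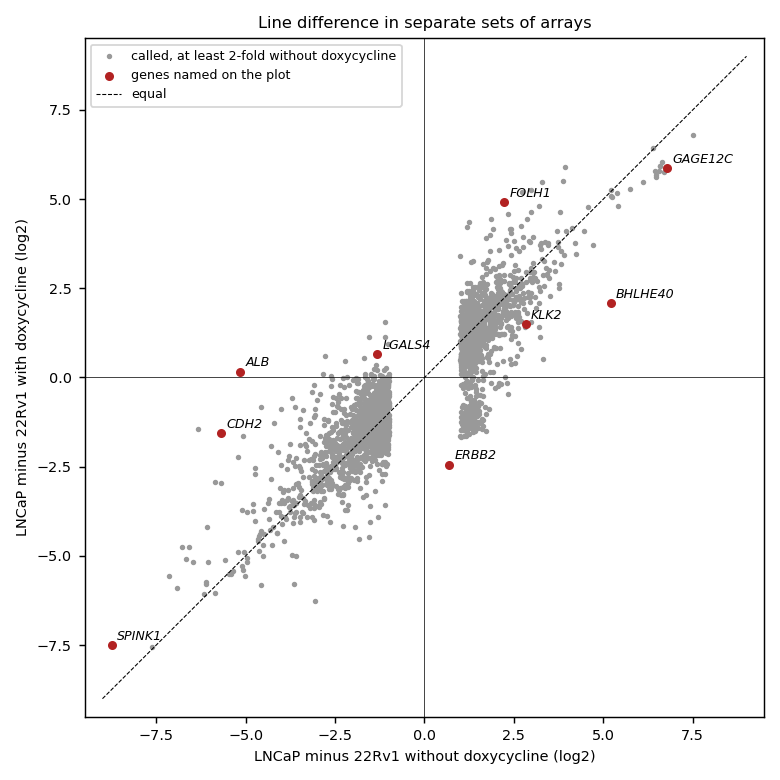
Log2 difference LNCaP minus 22Rv1 on the arrays without (x axis) and with doxycycline (y axis) for the 2544 genes called at least 2-fold without it (grey) and for genes named on the plot (red), some of them under 2-fold, with a dashed line of equality. Of the 2544 genes 2203 were called the same way with doxycycline, and for 921 (36.2%) the difference itself differed between conditions (interaction term in limma). ALB, CDH2 and BHLHE40 lie away from the line, and a group of 145 genes at the right lies below 0 with doxycycline.

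Promoter windows were also described by their CG content. A window was called CG-rich at a GC content of at least 55% and an observed over expected CG ratio of at least 0.65. Of all 10801 tested genes with a window 68.5% were CG-rich, of those called higher in LNCaP 70.6% and of those called lower 71.5%. Of 122 genes called at least 2-fold higher and above background on all 3 LNCaP arrays and no 22Rv1 array, 49.2% were, and of 274 in the opposite state 48.9%. Both of these shares lay below that of all genes, and no test was made of the difference.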

How the data were processed

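RNA of each sample was labelled and hybridised to an Illumina bead array, per the labels' protocols. The authors deposited, per the file headers, a non-normalized intensity and the matching detection p-value of every probe on every array, and a matrix of log2 values. Those log2 values matched quantile-normalized log2 intensities with no background correction, apart from a few probes. No software is given in the sources used here.

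The intensities were background-corrected and quantile-normalized (neqc, offset 16) in limma 3.58.1 under R 4.3.3 (statmod 1.5.0). Probes with 1 gene symbol were kept where the detection p-value lay under 0.05 on 3 or more of 18 arrays, and the probe with the highest mean over all arrays stood for its gene. All 6 groups entered 1 limma fit, and Benjamini-Hochberg adjustment ran over 13680 genes. The test was checked on simulated data. No array pair held identical values. The number of arrays limits the precision.

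Genes were named as the 15 largest rises and falls with arrays that did not overlap, up to 4 called rises and falls per list, all androgen target, ETS and repair genes, members of the 5 longest runs, and a fixed set including LGALS4. KRT8 and KRT18 were named as markers, and NR3C1 after its values were seen. Y-linked genes were left out, and a few listed genes are not analysed here. The members and lists were chosen with earlier results of these data known. Alternatives covered background, scaling, the deposited matrix, the filter, the choice of probe, the arrays fitted, array weights, a minimum change, a replicate block and leaving out single arrays.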

Additional observations from a re-analysis of the deposited data

Results flagged for a closer look

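The difference between the lines with Dox was set against the same difference without Dox for 58 genes: LGALS4, the largest rises and falls (the GAGE genes included) and the genes chosen to be named whether called or not. The interaction term in limma passed an adjusted p of 0.05 for 29 of them, and for 147 of all 372 named genes. All values are differences on the log2 scale, LNCaP minus 22Rv1 with Dox minus LNCaP minus 22Rv1 without Dox, so that a positive value means a line difference that was more positive with Dox. The galectin-4 gene itself, LGALS4, stood at 1.98.

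Among secreted and surface proteins, ALB stood at 5.32, CDH2 at 4.13 and FOLH1 at 2.68. Among enzymes of steroid metabolism, AKR1C2 stood at 4.87, UGT2B15 at 3.27, AKR1C3 at 2.01 and UGT2B17 at 1.94. Several genes with large falls in LNCaP without Dox had smaller differences with it, with C5 at 1.87, STOM at 1.83, ADIRF at 1.57, ASB9 at 1.56, TSPAN8 at 1.28, SPINK1 at 1.23, S100A10 at 1.02 and TIMP1 at 0.88. RGS2, CTAG2, PRSS23, VGF and PLA2G3, also among the largest falls, were not flagged. The largest falls had been chosen by their size without Dox. TMPRSS2 stood at 1.31, ANXA1 at 1.28 and B2M at 1.12.

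Negative values were those of ERBB2 at -3.14, BHLHE40 at -3.13, FKBP5 at -1.71, EGFR at -1.59, GSTP1 at -1.43 and KLK2 at -1.33. The GAGE probes, which share signal, stood at -0.94 for GAGE12F, -0.92 for GAGE12C, -0.86 for GAGE4 and -0.78 for GAGE12H. No explanation of these differences was tested.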

How the results depend on the processing

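Counts at 2-fold depended on the background correction: without it 495 genes were higher and 573 lower in LNCaP, and in the authors' deposited log2 matrix 494 and 573, against 1171 and 1373. Under median scaling 2089 genes were called higher, against 3246, and 1707 were called in the interaction, against 2572. A minimum change of 1.5-fold (treat) left 2462 calls, 1085 higher and 1377 lower. Leaving out 1 array gave 6144 to 6541 calls without Dox (2857 to 3061 higher, 3287 to 3480 lower) and 6667 to 7403 with Dox, and LGALS4 stood between -1.36 and -1.30. Without background correction and in the deposited matrix LGALS4 stood at -0.41 (adjusted p in limma 0.00331 in both), against -1.32. A fit of only the 6 arrays compared gave 7539 calls, and the replicate block 7462, against 6887. Deviations of same-numbered LNCaP and 22Rv1 arrays correlated at 0.0084, 0.0748 and 0.032, and every array but 22Rv1 replicate 1 correlated best with its own number, which is a hint from the data and not from the design. The labels give no pairing beyond the number, so the arrays were not treated as pairs. Of 372 named genes 343 were called, and 305 of these kept call and direction under all alternatives run. ERBB3 was reversed, at 0.17 with the mean of its probes (adjusted p in limma 0.223), against -0.63. Causes were not tested. Probes near background understate a fold, and 361 genes were above background on none of the 6 arrays.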
